A study of Rattus norvegicus with 6 samples.

Results

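The Ugt2b genes of the rat code for UDP-glucuronosyltransferases, enzymes of the endoplasmic reticulum that join glucuronic acid to drugs and steroids. They were followed in liver RNA of male Sprague-Dawley rats, 3 given corn oil, the vehicle, and 3 given phenolphthalein, a former laxative, at 1000 mg per kg per day. Members were all array probes whose RefSeq accession belongs to one of the genes named Ugt2b1, Ugt2b7, Ugt2b10, Ugt2b15, Ugt2b17, Ugt2b34, Ugt2b35 or Ugt2b37. These were 8 probes of 6 genes, out of 27460 probes that matched 15284 genes and 61657 probes in all. The names Ugt2b17 and Ugt2b34 matched no probe and are now older names, Ugt2b17 of Ugt2b1 and Ugt2b15 and Ugt2b34 of Ugt2b10. Both groups held animals bought at 5 weeks of age as Crl:CD(SD) rats and kept on the same basal diet, and 1 array stands for 1 animal. Treatment lasted 28 days by the design text but 9 weeks by the treatment protocol.

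In liver, glucuronidation makes fat-soluble compounds water-soluble, so that export pumps can move them into bile or blood. The Ugt2b enzymes act mainly on steroids, bile acids and drugs, and Ugt2b1 of the rat is known as a form induced by phenobarbital. Phenolphthalein is itself cleared as its glucuronide, which enters bile and is split again in the gut. Hepatocyte nuclear factor 1 is known to drive rat Ugt2b1 in liver, and the drug-sensing nuclear receptors CAR and PXR are known to bind pairs of short repeats in their target genes.

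All 6 genes lie in 1 cluster on chromosome 14 (GRCr8), from Ugt2b15 at chr14:21122866-21138450 to Ugt2b10 at chr14:21436939-21483494, with Ugt2b1 at chr14:21378882-21390631. Their RefSeq promoter windows run from 250 bases before to 50 bases after a start that is the first base of the gene for 4 of the 6 members. For Ugt2b35 that start lies 52 bases inside the gene and for Ugt2b10 it lies 25902 bases inside, so these 2 windows are not those of the gene's first base. The windows of Ugt2b1, the gene that rose, and of Ugt2b15 and Ugt2b37, the most similar pair of members, are shown. The first lacks an exact copy of the run described next, and the other 2 hold it. Capitals mark a run of 25 bases shared by 4 of the 6 member windows, and the hexamer AGGTCA or AGTTCA, bound by nuclear receptors, on either strand. All 3 are on the plus strand, printed 5′ to 3′.
Ugt2b1, chr14:21378632-21378931: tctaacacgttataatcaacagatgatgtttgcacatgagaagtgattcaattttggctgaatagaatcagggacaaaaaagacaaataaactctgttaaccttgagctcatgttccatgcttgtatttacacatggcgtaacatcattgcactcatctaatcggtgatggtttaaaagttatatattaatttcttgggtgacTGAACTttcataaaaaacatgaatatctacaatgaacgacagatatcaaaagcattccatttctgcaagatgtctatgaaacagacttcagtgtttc
Ugt2b15, chr14:21122616-21122915: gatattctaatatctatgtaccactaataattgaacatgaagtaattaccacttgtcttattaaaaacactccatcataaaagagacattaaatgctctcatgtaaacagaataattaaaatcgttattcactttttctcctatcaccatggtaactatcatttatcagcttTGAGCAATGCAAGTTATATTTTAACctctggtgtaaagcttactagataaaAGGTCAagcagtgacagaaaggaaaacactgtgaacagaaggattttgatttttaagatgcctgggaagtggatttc
Ugt2b37, chr14:21171886-21172185: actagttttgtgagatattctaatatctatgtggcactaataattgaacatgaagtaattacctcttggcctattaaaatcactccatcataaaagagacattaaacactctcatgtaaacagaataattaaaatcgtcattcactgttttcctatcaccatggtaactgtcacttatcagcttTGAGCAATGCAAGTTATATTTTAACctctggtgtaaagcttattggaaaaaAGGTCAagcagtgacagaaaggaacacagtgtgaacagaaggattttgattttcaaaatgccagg
The shared run, TGAGCAATGCAAGTTATATTTTAAC, was in the windows of Ugt2b7, Ugt2b15, Ugt2b35 and Ugt2b37, beginning at -90, -78, -87 and -66 from the start each window is built on. The exact run was absent from those of Ugt2b1 and Ugt2b10, and inexact copies were not sought. Both windows hold letters close to its end, aagttatatattaat in Ugt2b1 and aagttatactttaac in Ugt2b10. The exact run stood in 7 of all 33469 windows, each of them on chromosome 14. The windows of Ugt2b15 and Ugt2b37 were 85.3% identical in a global alignment. That of Ugt2b1 was 54.4% to 57.6% identical to the windows of the other members, and that of Ugt2b10 was 52.0% to 54.4% identical to them. Windows of unrelated genes were not aligned, so how far these lower values show likeness cannot be told. Such a hexamer was in 3 member windows, beginning at -47 in Ugt2b1, -27 in Ugt2b15 and -15 in Ugt2b37, and in 27.9% of all windows. No member window held more than 1 such hexamer. None could therefore hold 2 as a direct repeat with a spacer of 4 bases, a pattern in 0.0179% of all windows. Sequence outside the windows was not searched, so repeats farther from these starts would not be seen. The letters GTTAAT are a part of the site of hepatocyte nuclear factor 1. They were found on either strand in 1 member window, that of Ugt2b10 inside the gene, and in 7.45% of all windows. Only these exact letters were sought, so a site that differs by a base was not counted, in Ugt2b1 or elsewhere.

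Ugt2b1 was the 1 member that passed the test, with a rise of 6.46-fold with phenolphthalein. The 6 probes of Ugt2b10, Ugt2b15, Ugt2b35 and Ugt2b37 had higher means with phenolphthalein, by 1.18-fold to 1.63-fold, and did not pass. Nor did the probe of Ugt2b7, whose signal lay near background. Values below are the processed signal as a multiple of the array's own 75th percentile over all probes, and log2 of it. A probe was called where limma's Benjamini-Hochberg adjusted p, taken over all 39411 probes tested, was under 0.05. By that rule 0.0457% of all probes were called higher and 0.00254% lower, against 1 and 0 of the 8 member probes. All 8 had passed the filter of at least 3 arrays of 6 well above background. Of these, 7 were so on 6 arrays, while Ugt2b7 met the filter through the phenolphthalein arrays. It is left out where 7 member probes are counted and kept where 8 are. The median log2 fold change was 0.41 over the 7 member probes and 0.02 over all 36093 probes well above background on 6 arrays. Bulk liver RNA cannot tell a change in the share of a cell type from a change in RNA per cell. Corn oil arrays lay on slide 1 and phenolphthalein arrays on slide 2, scanned on separate days, so treatment and slide or scan cannot be told apart.

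**Figure D1:**
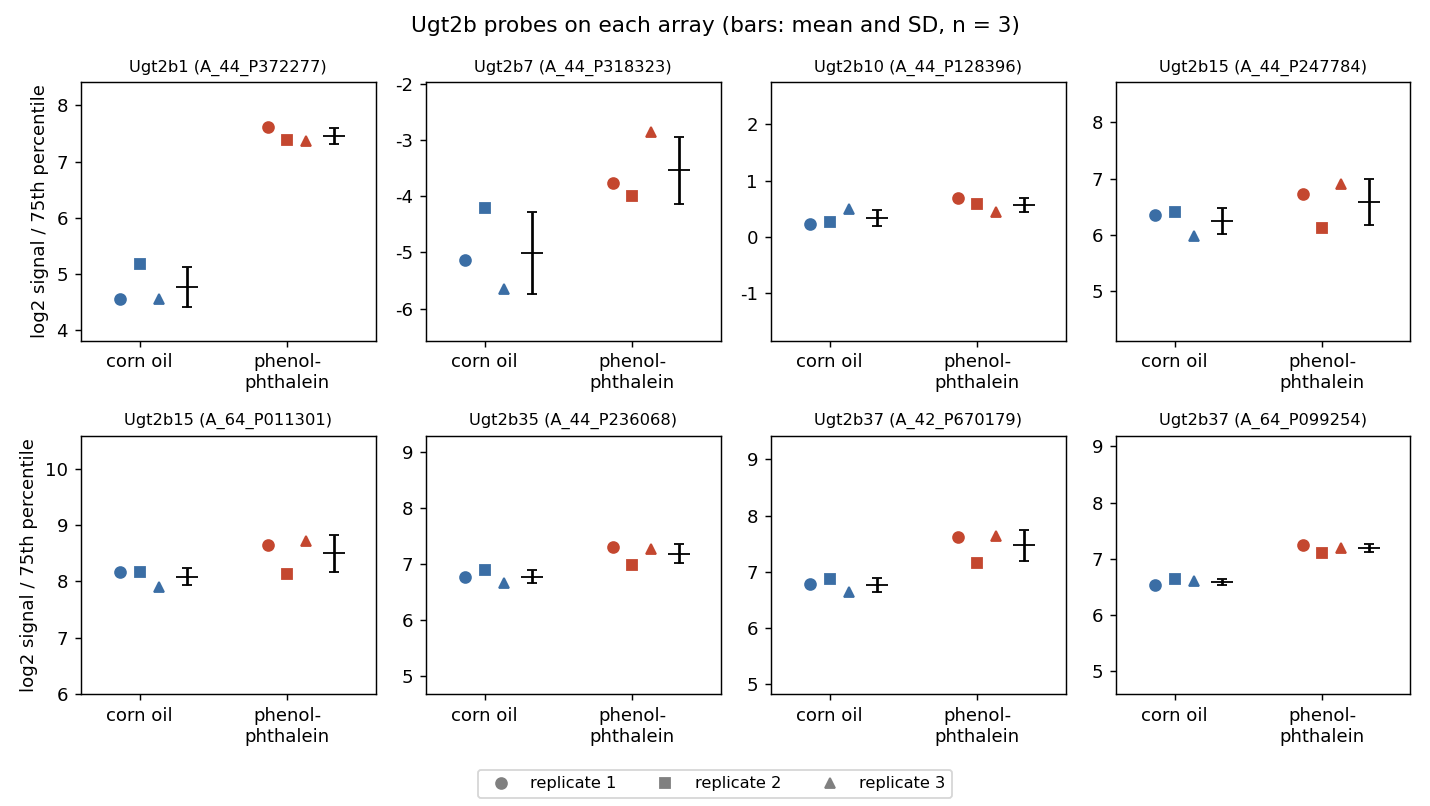
Log2 signal relative to the array's 75th percentile for each Ugt2b probe, by group; symbols are the 3 animals of each group and bars the mean and SD (n = 3). Each panel spans the same log2 range around its own centre; the 3 phenolphthalein arrays of Ugt2b1 sit at 166 to 197 times the percentile, above the 23.5 to 36.2 of corn oil.

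Ugt2b1, measured by probe A_44_P372277 for NM_173295, conjugates drugs and testosterone. Its signal was 23.6, 36.2 and 23.5 times the 75th percentile on corn oil replicates 1 to 3 and 197, 166 and 166 times on phenolphthalein replicates 1 to 3. The lowest phenolphthalein array lay well above the highest corn oil array, which was replicate 2. On the log2 scale the mean went from 4.77 ± 0.36 to 7.46 ± 0.14 (SD, n = 3 per group). The log2 fold change was 2.69 ± 0.20 (SE), with a limma adjusted p of 0.0311, and the 95% interval of the fold ran from 4.64 to 8.99. Its p ranked 11th among the 39411 probes. The size of the change ran from 2.59 to 2.90 on the log2 scale when any 1 of the 6 arrays was left out. The call was lost in each of those 6 fits, with limma adjusted p from 0.056 to 0.181, and 0 to 5 probes of the whole array were then called higher. It was also lost with all 6 arrays and no filter on dim probes, at a limma adjusted p of 0.0663.

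Ugt2b37 had 2 probes for NM_001007264. On probe A_64_P099254 the signal was 92.3, 99.1 and 97.3 times the percentile with corn oil and 152, 138 and 147 times with phenolphthalein. The groups did not overlap and the spread within each was narrow, with SDs of 0.05 and 0.07 log2 units (n = 3 each). The log2 fold change was 0.60 ± 0.08 (SE), or 1.51-fold with a 95% interval of 1.32 to 1.74, and the limma adjusted p was 0.136. On probe A_42_P670179 the signal was 111, 117 and 99.3 times with corn oil and 197, 143 and 199 times with phenolphthalein. The groups again did not overlap, and phenolphthalein replicate 2 stood below the other animals of its group. Here the log2 fold change was 0.71 ± 0.16 (SE), with a 95% interval of 1.25-fold to 2.13-fold and a limma adjusted p of 0.216. The 2 probes gave changes within each other's intervals. With an intensity trend and a robust prior the first probe passed at a limma adjusted p of 0.0472, the 1 setting of 18 in which it did.

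Ugt2b35, probe A_44_P236068 for NM_001004271, read 110, 119 and 101 times the percentile with corn oil and 158, 127 and 154 times with phenolphthalein. The lowest phenolphthalein array, replicate 2, was a little above the highest corn oil array. The difference was 0.41 ± 0.12 (SE) log2 units, or 1.33-fold with a 95% interval of 1.08 to 1.63, and the limma adjusted p was 0.28.

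Ugt2b15, whose older names include Ugt2b3 and Udpgtr-3, is a testosterone-conjugating form with 2 probes for NM_153314. Probe A_64_P011301 read 288, 289 and 239.7 times the percentile with corn oil and 399.6, 279 and 424 times with phenolphthalein. The groups overlapped, since phenolphthalein replicate 2 lay under 2 of the corn oil arrays. Its log2 fold change was 0.41 ± 0.18 (SE), with a 95% interval of 0.974-fold to 1.82-fold and a limma adjusted p of 0.406. Probe A_44_P247784 read 81.5, 84.5 and 62.7 times with corn oil and 106, 69.9 and 119.6 times with phenolphthalein. It overlapped in the same way, and its change of 0.35 ± 0.23 (SE) log2 units had a limma adjusted p of 0.558. Without 1 array the change ran from 0.30 to 0.60 on the first probe and from 0.19 to 0.58 on the second.

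Ugt2b7, probe A_44_P318323 for NM_173323, was a dim spot. Its signal was 0.0284, 0.0538 and 0.0198 times the percentile with corn oil and 0.0738, 0.0624 and 0.138 times with phenolphthalein. Of the corn oil arrays only replicate 2 was well above background, while 3 of 3 phenolphthalein arrays were. The groups did not overlap, and the log2 fold change was 1.46 ± 0.45 (SE) with a limma adjusted p of 0.292. It fell to 0.60 with normexp background correction, which adds an offset that weighs most on dim spots. In humans the enzyme of this name conjugates morphine.

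Ugt2b10, probe A_44_P128396 for NM_001191676, differed least between the groups. It read 1.17, 1.2 and 1.41 times the percentile with corn oil and 1.61, 1.5 and 1.36 times with phenolphthalein. Corn oil replicate 3 lay above phenolphthalein replicate 3, so the groups overlapped. The log2 fold change was 0.24 ± 0.11 (SE), with a 95% interval of 0.973-fold to 1.43-fold and a limma adjusted p of 0.429. The human enzyme of this name is known for joining glucuronic acid to amines.

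**Figure D2:**
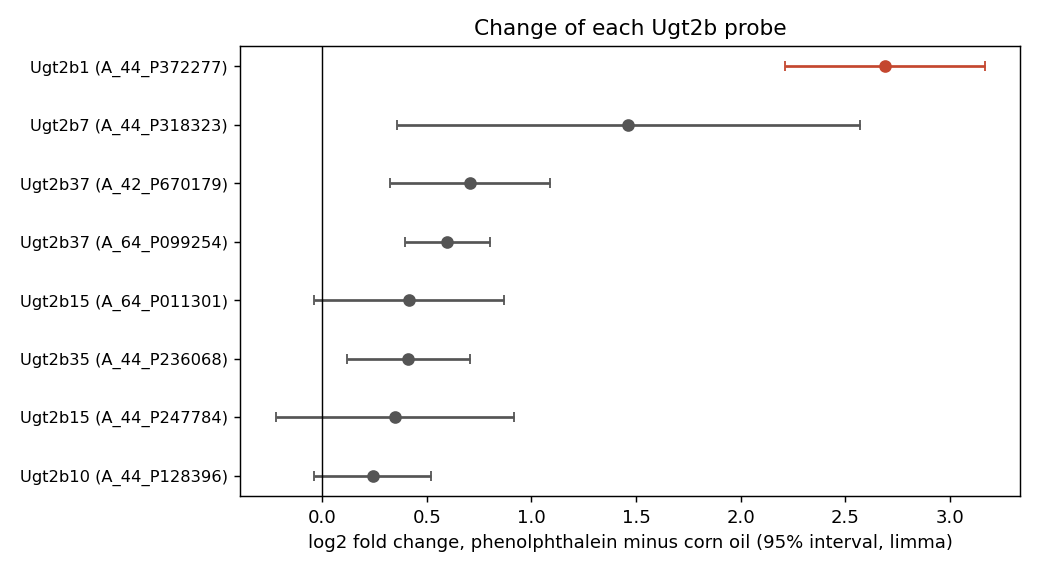
Log2 fold change of each Ugt2b probe, phenolphthalein minus corn oil, with limma's 95% interval (n = 3 per group); red marks the adjusted p under 0.05. Ugt2b1 stands at 2.69, and the intervals of both Ugt2b15 probes and of Ugt2b10 include 0.

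Over the 7 probes well above background on 6 arrays, the phenolphthalein mean was higher for 7, where it was higher for 54.2% of the 36093 probes of that kind. Every phenolphthalein array lay above every corn oil array for 4 of them, those of Ugt2b1, Ugt2b35 and Ugt2b37, where this held for 12.4% of all. The same 4 probes had an unadjusted p under 0.05 and a higher mean in the limma fit over those 36093, where 7.52% of all did. In the other direction the member counts were 0 for both measures, where all phenolphthalein arrays lay below for 9.21% and 6.7% were lower at that p. Members of the family are alike in sequence. A probe may bind the RNA of more than 1 of them, which was not tested, so the member probes may not be separate measures.

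Within each group the animals did not stand in the same order for all members. Corn oil replicate 3 was the lowest corn oil array for 6 of the 8 probes, and phenolphthalein replicate 2 the lowest phenolphthalein array for 6, with 5 probes showing both. Over 39376 probes with no missing spot, 14.6% showed both. Of the 5 probes, 2 were of Ugt2b15 and 1 each of Ugt2b7, Ugt2b35 and Ugt2b37. The Ugt2b7 spot on corn oil replicate 3 was not well above background, so its place in that order is uncertain. Ugt2b1 was not among the 5, since its lowest phenolphthalein array was replicate 3.

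The same 2 arrays stood apart for Ugt2b, whose older name is Ugt2b2. It is no member but lies in the same cluster, at chr14:20985449-21006267, and codes for the enzyme that conjugates androsterone. It is described here because its values were seen to follow that order. Its probe A_64_P117003 for NM_031533 read 104, 109 and 0.166 times the percentile on corn oil replicates 1 to 3 and 191, 0.274 and 281 times on phenolphthalein replicates 1 to 3. Probe A_44_P426047 read 117, 121 and 8.51 times with corn oil and 215, 11.3 and 313 times with phenolphthalein. Probe A_44_P437096 read 2.74, 3.12 and 0.00772 times with corn oil and 3.83, 0.00609 and 6.76 times with phenolphthalein. On this last probe the 2 low arrays were not well above background and the other 4 were. The low arrays were thus 1 animal of each group on all 3 probes, which lie apart on the array surface, at rows 109, 236 and 373. No spot of these probes carried an outlier mark. Limma adjusted p was 0.927, 0.84 and 0.97 for the 3 probes in the order given. The low array in each group widened the spread, so these p-values say little about a change with treatment. On the other 4 arrays phenolphthalein read higher than corn oil on all 3 probes, which was not tested. Rats that lack this enzyme by inheritance are known from other stocks, and genotype was not measured here. The part of Ugt2b in the signals of the member probes was not tested. Without corn oil replicate 3 and phenolphthalein replicate 2, an alternative chosen after the data were seen, the log2 fold change was 2.63 for Ugt2b1, 0.51 and 0.44 for the Ugt2b15 probes, 0.45 for Ugt2b35 and 0.80 and 0.65 for the Ugt2b37 probes. Ugt2b1 did not pass in that limma fit of 2 animals against 2, with an adjusted p of 0.573. The fit left out the lowest array of each group for 5 of the 8 probes, so its p-values for the other members are not given.

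**Figure D3:**
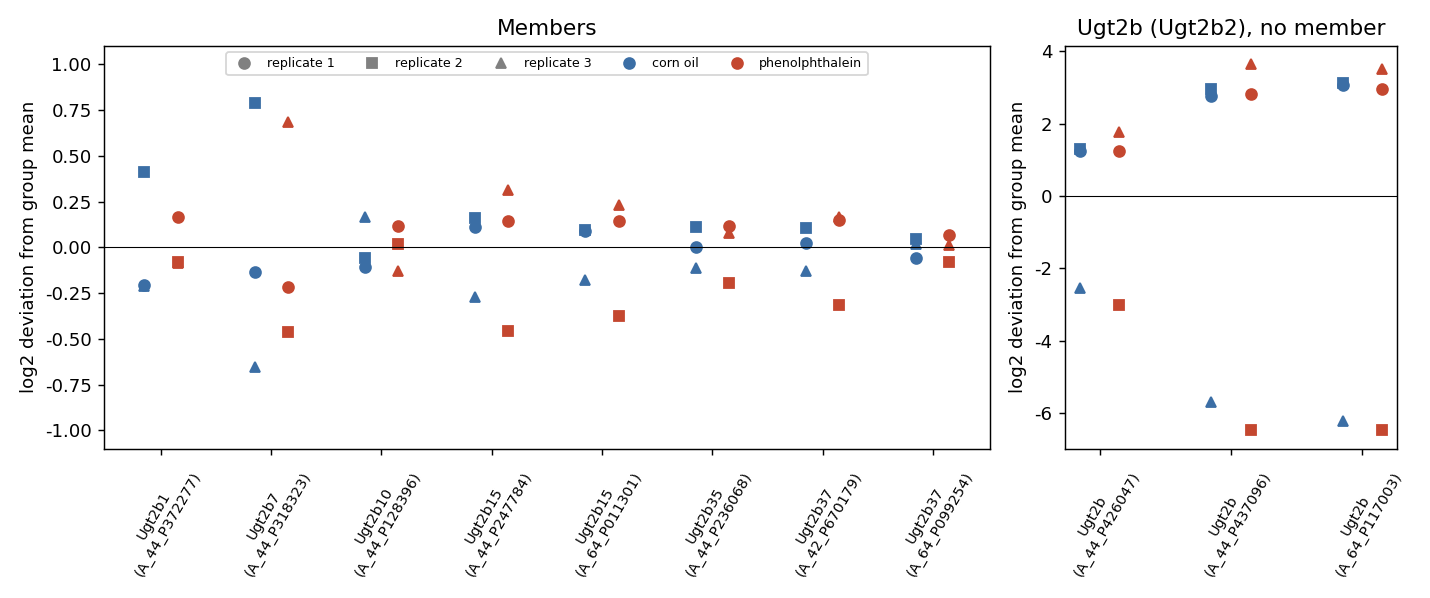
Log2 deviation of each array from its group's mean for the Ugt2b member probes (left) and the 3 probes of Ugt2b, formerly Ugt2b2 (right, on a wider axis); symbols are replicates and colours groups. Corn oil replicate 3 and phenolphthalein replicate 2 are the low points on the right, and both are lowest for 5 of the 8 probes on the left.

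The genes whose pattern was closest to that of Ugt2b1 were sought by the distance between log2 deviations from the gene's mean over the 6 arrays. The 5 nearest were Cyp2b15, Or4g7, Atp6ap1l, Cyp2b21 and Cyp2b12, at distances of 0.853 to 1.23 log2 units. Cyp2b genes code for cytochrome P450 enzymes of drug oxidation, and Cyp2b1, the main phenobarbital-induced form, came sixth at 1.27. In a limma fit with 1 probe a gene over 11434 genes, the log2 fold change was 2.85 for Cyp2b15, 3.36 for Cyp2b12, 1.84 for Cyp2b21 and 3.61 for Cyp2b1, beside 2.69 for Ugt2b1, and all 5 passed with adjusted p from 0.0108 to 0.0176. That fit called 0.0525% of genes higher and 0.00875% lower. The 5 nearest genes were chosen for likeness on these same arrays, so a pass in this fit is no separate support for them. A probe may also bind the RNA of more than 1 Cyp2b gene, which was not tested. Or4g7, an olfactory receptor gene, had a log2 fold change of 2.03 ± 0.26 (SE) with an adjusted p of 0.0955, and Atp6ap1l one of 2.11 ± 0.24 with 0.083, and neither passed.

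**Figure D4:**
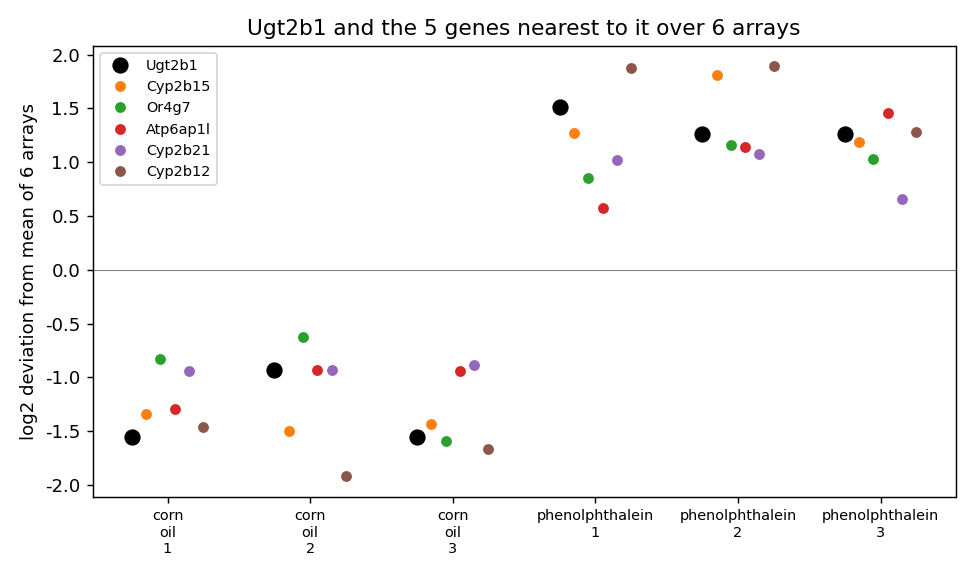
Log2 deviation from the gene's mean over 6 arrays for Ugt2b1 (large black points) and the 5 nearest genes, by array. On every corn oil array all 6 genes lie below 0 and on every phenolphthalein array above it; they were chosen for this likeness.

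The other genes of the glucuronidation pathway were taken by their brightest probe in the same fit over genes, in which the median log2 fold change of all genes was 0.01. Among 14 other UDP-glucuronosyltransferases, 7 had a probe and 5 were tested, and Ugt2a1 and Ugt8 were not well above background on any array. The mean was higher for 5 of 5 and 0 passed in limma, with 1 at an unadjusted p under 0.05 (7.16% of all genes were higher at that level) and a median log2 fold change of 0.23. The 1 was Ugt2a3, a close relative of the Ugt2b enzymes. Its brighter probe, A_64_P062143, read 3.93, 6.99 and 2.34 times the percentile with corn oil and 11.5, 7.3 and 11.6 times with phenolphthalein, without overlap. Its log2 fold change was 1.31 ± 0.42 (SE), with a limma adjusted p of 0.264, and its second probe had one of 1.17 ± 0.49. Ugt1a1, the bilirubin-conjugating form, had 0.30 ± 0.17 (SE) and Ugt1a6, a phenol-conjugating form, 0.23 ± 0.16.

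No gene that supplies the co-substrate UDP-glucuronate passed in limma, nor was any of the 5 tested under 0.05 by unadjusted p. Their mean was higher for 4 and lower for 1, with a median log2 fold change of 0.06. Ugdh, the dehydrogenase that makes UDP-glucuronate, had a log2 fold change of -0.18 ± 0.13 (SE). Slc35d1, its carrier into the endoplasmic reticulum, had 0.11 ± 0.08, and Pgm1, which feeds glucose phosphate into the route, 0.07 ± 0.08. Of 7 genes that use glucuronate or split glucuronides, 4 had a higher and 3 a lower mean, with 0 past the threshold, 0 at an unadjusted p under 0.05 and a median of 0.01. The 3 with the smallest p were Entpd5, which removes the UDP left by the reaction, at 0.30 ± 0.12 (SE), Cant1, another nucleotidase, at -0.10 ± 0.07, and Rgn, an enzyme of vitamin C synthesis from glucuronate, at -0.21 ± 0.23.

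Of 8 transporters of glucuronides, 7 had a higher and 1 a lower mean, with 0 past limma's threshold, 1 at an unadjusted p under 0.05 and a median log2 fold change of 0.13. The uptake carrier Slco1a4 had 0.60 ± 0.17 (SE), with a limma adjusted p of 0.239. On this brightest probe the groups did not overlap, as held upward for 12.2% of all genes. On its other probes, A_42_P708480 and A_44_P203532, the groups overlapped, with log2 fold changes of 0.60 and 0.45. The pump Abcc2, which moves glucuronides into bile, had 0.08 ± 0.13, and Abcc3, which moves them into blood, 0.52 ± 0.55. Slco1a1 had -0.08 ± 0.07 and Abcc4 0.16 ± 0.16. Of 12 regulators of hepatic UGT genes, 8 had a higher and 4 a lower mean, with 0 past the threshold, 1 at an unadjusted p under 0.05 and a median of 0.07. Rxra, the partner receptor of CAR and PXR, had 0.29 ± 0.11 (SE), Nr1i2, which codes for PXR, 0.33 ± 0.16, and Ahr, the dioxin receptor, 0.79 ± 0.43. The outlying value of the plot, Foxa2 at -2.86 ± 2.85 (SE), was chosen after its values were seen. Foxa2 read 6.85, 3.35 and 6.46 times the percentile with corn oil and 6.12, 10.4 and 0.00612 times with phenolphthalein, so 1 spot on phenolphthalein replicate 3 set it.

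**Figure D5:**
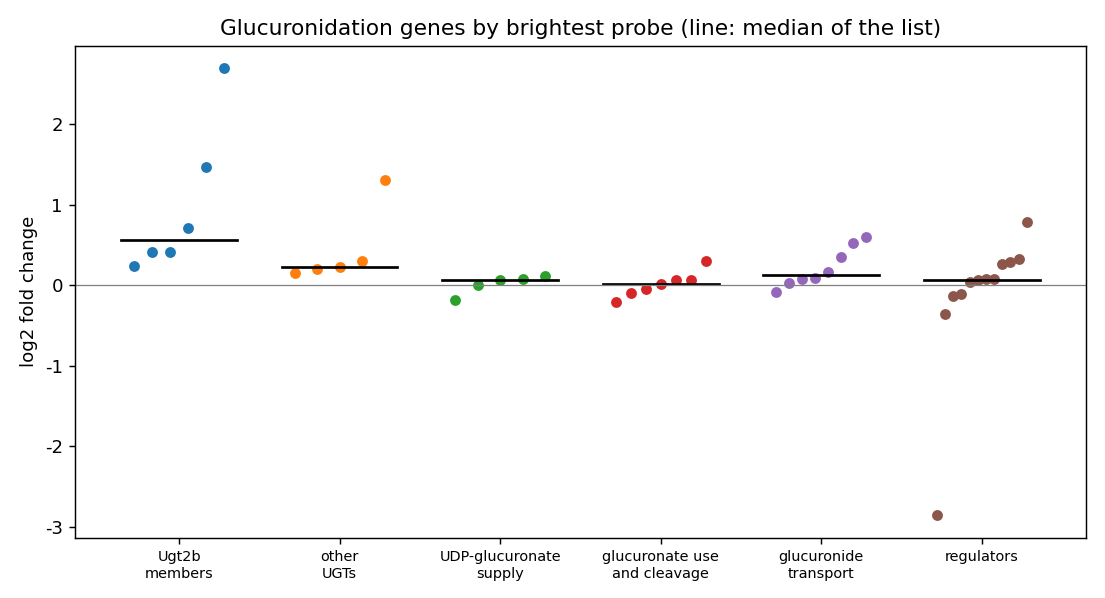
Log2 fold change, phenolphthalein minus corn oil, of each tested gene of the 6 glucuronidation lists by its brightest probe; black lines are list medians. The median is 0.56 for the 6 Ugt2b genes (0.41 without the dim Ugt2b7) and 0.01 to 0.23 for the other lists, and Ugt2b1 is the 1 gene past the limma threshold.

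The summed signal of hepatocyte markers overlapped between the groups. The signals of the 10 tested, Alb and Apoa1 among them, summed to 6512 to 6984 times the percentile on corn oil arrays and 6784 to 7091 on phenolphthalein arrays, with a median log2 fold change of 0.05. Markers of macrophages had a lower mean with phenolphthalein for 12 of 12 tested, with a median of -0.62 and sums of 191 to 274 with corn oil and 142 to 187 with phenolphthalein. None of the 12 passed limma's threshold, and 10 were lower at an unadjusted p under 0.05, as 8.11% of all genes were. Lymphocyte markers had a lower mean for 6 of 6, with sums of 3.11 to 3.67 and 2.26 to 2.55, and 4 of them were lower at that p. The brightest was Ptprc, the leukocyte common antigen, at 1.53 to 1.77 with corn oil and 0.986 to 1.21 with phenolphthalein. These sums are thus not of lymphocytes alone. Bile duct markers had a higher mean for 4 of 5, with a median of 0.33 and sums of 1.63 to 1.78 with corn oil and 2.08 to 2.15 with phenolphthalein. None of these 5 passed in limma, and 3 were higher at an unadjusted p under 0.05, as 7.16% of all genes were. They were Spp1 at 0.92, Epcam at 0.29 and Cftr at 0.85, the last a dim spot at 0.0544 to 0.139 times the percentile. Krt7 had 0.33 ± 0.28 (SE) and Krt19 had -0.09 ± 0.21. Endothelial markers had a lower mean for 4 of 4, with a median of -0.08, and stellate cell markers for 7 of 7, with -0.06. None of them passed in limma, and 1 in each list was lower at an unadjusted p under 0.05. Markers of intestine, kidney tubule and exocrine pancreas had 4, 3 and 2 genes tested, with medians of -0.58, -0.31 and -0.35. Their sums were 1.75 to 1.82, 102 to 153 and 0.101 to 0.126 with corn oil. With phenolphthalein the sums were 1.36 to 1.74, 91.0 to 103 and 0.0829 to 0.113. The kidney list held a bright gene, Slc22a8, at 88.6, 115 and 141 times the percentile with corn oil and 81.7, 90.4 and 91.8 with phenolphthalein. The intestinal Vil1, the kidney gene Kap and the pancreatic Cpa1, Cela1, Pnlip and Prss1 were not well above background on any array. The part of other cell types in the Ugt2b1 difference was not tested.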

How the data were processed

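Liver RNA of 6 rats was read on Agilent 1-colour arrays. Scans were quantified in Agilent Feature Extraction, which the submitters' processing notes give as version 10.7 and the headers as 10.7.1.1. The deposited processed signal is an intensity, background-subtracted and spatially detrended per the file headers and not normalized between arrays. Set against the scanner values, the authors' deposited table was found to be this intensity over each array's 75th percentile, with column medians of 0.0941 to 0.102. Its scale is linear and uncentred, with direction unchanged. The 75th percentile was 551 to 636, 62.1% to 65.1% of probes per array were well above background, and 0 spots were saturated. The number of arrays limits the precision.

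Log2 signal minus log2 of the array's 75th percentile was fitted with limma (version 3.58.1, under R 4.3.3), over probes that 3 or more of the 6 arrays showed well above background, with 4 to 14 outlier-marked spots per array missing. Each probe was a separate test, since probes of a gene can disagree. A second fit took the brightest probe of each gene, and list counts come from it. Probes were named by unversioned accession through RefSeq genes of GRCr8, used for names, gene positions and promoter windows. The array design was annotated on rn4, and no array coordinate is used. Promoter windows were aligned globally. The fit was run on simulated data with independent noise and 200 changed probes. The simulation had no slide difference, so it gives no error rate for these arrays.

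Members and lists were chosen with earlier results of these data known. Genes named were all member probes, the 3 smallest p of each other glucuronidation list, the 5 genes nearest to Ugt2b1, and Cyp2b1, Ugdh, Ugt1a1, Abcc2 and Abcc3; Ugt2b and Foxa2 were added after their values were seen. Alternatives were normexp with an offset of 50 on the median spot signal, quantile and median scaling, other filters on dim probes, named probes, 1 value a gene, a robust prior with intensity trend, keeping marked spots, masking columns with a line of dim spots, the values deposited by the authors, leaving out arrays in turn, and a block for the replicate number. Protein sequences were not used here.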

Additional observations from a re-analysis of the deposited data

How the results depend on the processing

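Ugt2b1 stayed higher in all 20 alternative settings, with a log2 fold change of 2.59 to 2.90, and passed in 11 of them. Its limma adjusted p ran from 0.00516 to 0.573. All 8 member probes kept a higher mean in every setting that gave a value. The count of member probes higher was 1 in the main limma test, 2 with an intensity trend and a robust prior, and 0 with no filter on dim probes, with the replicate number as a block and without any 1 array. With no filter 5 of the 8, the dim Ugt2b7 among them, were higher at an unadjusted limma p under 0.05. At that level 2611 of all 61657 probes were higher. With the block 4 of the 8 were higher at that p, against 2200 of all 39411 probes. In the main test 18 of all probes were called higher and 1 lower. With no filter 0 were called higher and 0 lower, and with the replicate block 0 and 0. Named probes alone gave 11 higher, 1 value a gene 6 by the brightest probe and 5 by the mean. A filter on all 6 arrays and the intensity trend each gave 2 lower. Without 1 array 0 to 5 were higher and 0 to 1 lower, and without corn oil replicate 3 and phenolphthalein replicate 2 both were 0, with 1608 higher at an unadjusted p under 0.05. Fits that leave out arrays hold fewer samples, and no filter adds probes to the adjustment. With no filter the unadjusted limma p of Ugt2b1 also rose, from 9.31e-06 in the main fit to 1.585e-05. The cause of the differences was not tested. Deviations from the group means correlated at -0.01, 0.02 and 0.01 between same-numbered arrays and at -0.07 to 0.06 between others. These values over all probes cannot tell whether the replicate numbers pair the animals. With the replicate block the limma adjusted p of Ugt2b1 was 0.33. No member spot lay in a masked column. Ugt2b7 is limited by its signal over background.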
